A study of Mus musculus with 15 samples.

Results

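MiR-342-3p (mmu-miR-342-3p) is a single miRNA, 1 of the 567 mouse miRNAs on the array and 1 of the 103 tested here, those that every array of some group detected. It was chosen by its measured values, as the miRNA with the steepest course over the graft days, so its own levels and differences are given below as a description with no test. Its rows were taken from the scanner output of all 15 arrays by the miRNA name printed there. RNA of mouse liver grafts was labeled with Cy3 and hybridized to Agilent mouse miRNA arrays in 1 color, with 3 male mice in each of 5 groups. The allogeneic grafts were livers of B10.BR mice placed in B10.D2 mice, strains that differ at the major histocompatibility complex, and were taken out on day 5, 8, 14 or 100 after surgery. The syngeneic grafts were taken on day 5. They are the only reference, so no later allograft day has a syngeneic graft of its own age. The labels of the syngeneic arrays name the same donor and recipient strains as the allografts, so their group was read from the sample titles. In the study the allografts were placed without an immunosuppressant, and total RNA came from whole graft tissue.

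A miRNA guides a silencing complex to messenger RNAs that pair with its seed, the bases near its 5′ end. MiR-342 lies within Evl, a gene for an actin regulator of the Ena/VASP family, and its hairpin gives a 5p and a 3p arm. It is known as a miRNA of blood cells, found in lymphocytes and raised during myeloid differentiation. A liver graft is a mixture of hepatocytes, endothelium, stroma, resident macrophages and recipient cells that enter it. In such bulk RNA, more cells of a type and more RNA per cell cannot be told apart.

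The mature sequences of both arms are shown to compare their seeds (bases 2 to 8, in capitals) with those of other miRNAs. They are from RefSeq, build GRCm38.p6, and were matched by name. The sequences of the probes themselves were not used here, so cross-hybridization was not checked.
miR-342-3p: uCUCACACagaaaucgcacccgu
miR-342-5p: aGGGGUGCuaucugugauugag
The 3p arm lies at chr12:108658680-108658702 and the 5p arm at chr12:108658638-108658659, both on the plus strand. No other of the 1679 mature names in the RefSeq table had the seed of miR-342-3p, nor its bases 2 to 7, so it had no seed relative to compare with it. The hairpin, with both arms in capitals, spans 99 bases at chr12:108658620-108658718 and begins 103939 bases after the start of Evl (chr12:108554681-108688516).
Mir342 hairpin: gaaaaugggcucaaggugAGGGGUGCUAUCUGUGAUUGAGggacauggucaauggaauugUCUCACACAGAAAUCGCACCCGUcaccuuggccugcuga
The 5p arm takes bases 19 to 40 and the 3p arm bases 61 to 83 of it, with 20 bases between the arms.

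MiR-342-3p was lowest in the syngeneic grafts and higher in every allograft, with its highest level on day 14. Levels are given as log2 of the summed probe signal, scaled to the array's 75th percentile. That percentile was taken over the 52 miRNAs that no array missed, and values under a floor of -5.21 were set to it. In the syngeneic grafts the levels were -5.21, -5.21 and -4.75, so 2 of the 3 stood at the floor. On day 5 the allografts had -3.10, -2.73 and -2.43. On day 8 they had -1.80, -1.62 and -1.73. These 6 arrays lay above all 3 syngeneic arrays, and the days did not overlap each other. On day 14 the levels were -0.78, -1.27 and -0.99, above every other array of the series. On day 100 they were -3.56, -3.46 and -3.13, back below day 5 yet still above the syngeneic grafts.

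**Figure D1:**
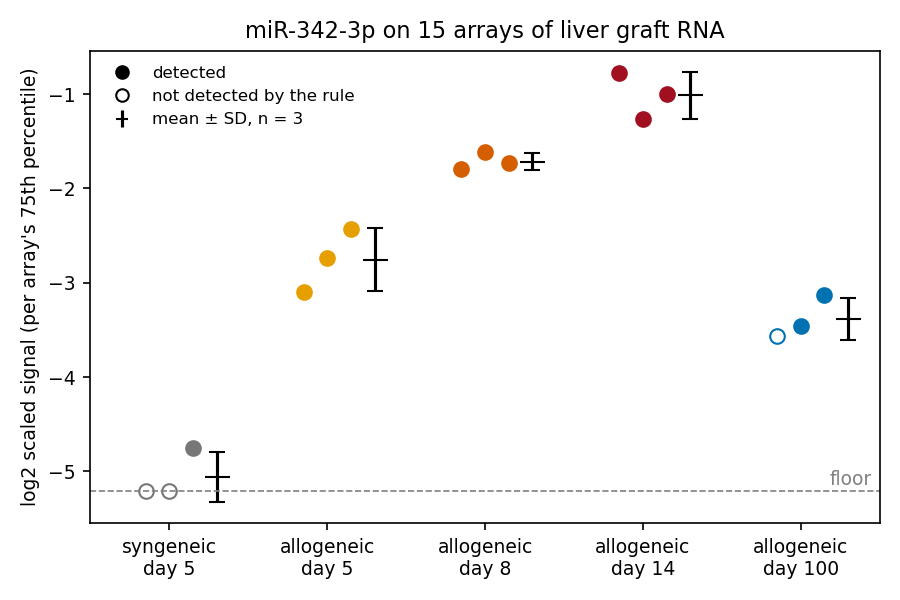
Level of miR-342-3p on each array, as log2 scaled signal on the vertical axis, for the 5 groups on the horizontal axis. Filled points were detected, open points were not by the rule used here, black bars are the mean ± SD (n = 3), and the dashed line is the floor of -5.21. The 3 arrays of day 14 sit between -1.27 and -0.78, above all others, and 2 of the 3 syngeneic arrays lie on the floor.

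The order of the group means was syngeneic at -5.06 ± 0.27, day 100 at -3.38 ± 0.22, day 5 at -2.76 ± 0.34, day 8 at -1.72 ± 0.09 and day 14 at -1.01 ± 0.25 (log2, SD, n = 3 each). Neighbors in this order were separated by differences of means of 1.67, 0.63, 1.04 and 0.70, each above the larger SD of its pair. The syngeneic SD is narrowed by the values set to the floor. The step from day 100 to day 5 was the smallest, and its nearest arrays were only 0.03 apart, so these 2 neighbors barely separated. The gap between the nearest arrays was 0.64 from day 5 to day 8, 0.35 from day 8 to day 14, and 1.19 from the syngeneic grafts to day 100. No 2 of the 5 groups overlapped in any of the 10 pairs, a pattern found for no other of the 103 tested miRNAs. Since miR-342-3p was picked for its course, this count describes it and supports nothing. The order of the 5 means was the same under every scaling, probe summary, floor and background correction tried. Under quantile normalization, no scaling, scaling over all mouse miRNAs and normexp, 3 rather than 4 of the neighboring pairs were free of overlap.

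Against the syngeneic grafts the log2 difference was 2.30 ± 0.25 (SE) for the day 5 allografts, 3.34 ± 0.16 for day 8, 4.04 ± 0.21 for day 14 and 1.67 ± 0.20 for day 100. The fold differences of the floored means were 4.93, 10.1, 16.5 and 3.18. These 4 differences share the same 3 syngeneic arrays, and 2 of those values are not measured levels. Those 2 are tied at the floor, which narrows the syngeneic SD and with it the 4 SEs. Where the detection limit of each array stood in for a lower signal, the folds were 3.74, 7.69, 12.5 and 2.42. Among the allografts, day 14 was above day 5 by 1.74 ± 0.24 (log2, 3.35-fold) and above day 100 by 2.37 ± 0.19 (log2, 5.18-fold).

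The unscaled intensities, before any division, showed the same order. The summed signal of the probes was 10.03, 4.74 and 22.9 scanner units in the syngeneic grafts. It was 103, 143 and 84.8 on day 5. On day 8 it was 207, 254 and 249. Each of these day 8 values lay above each day 5 value. On day 14 it was 479, 312 and 512, and on day 100 it was 84.9, 46.8 and 88.3. The lowest array of day 14 exceeded the highest of day 8, while days 5 and 100 overlapped on this scale. The 75th percentiles used as divisors also differed by group, from 395 to 616 in the syngeneic grafts and from 750 to 1018 on day 14. With no scaling at all, the day 14 difference from the syngeneic grafts was 4.41.

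MiR-342-3p was read by 2 probes, A_54_P2573 and A_54_P2574, each printed as 10 spots. Probe A_54_P2574 was the brighter on all 15 arrays, and over the 12 allograft arrays its signal was 1.39 to 1.71 times that of the other probe. Both probes followed the same course. Probe A_54_P2573 averaged 44.2 ± 12.04 units for day 5, 98.2 ± 10.5 for day 8, 179 ± 45.7 for day 14 and 29.2 ± 10.3 for day 100 (SD, n = 3). Probe A_54_P2574 averaged 66.1 ± 17.6, 138 ± 15.5, 256 ± 61.8 and 44.2 ± 12.8 on the same days. Day 14 exceeded day 5 by 1.78 with the first probe alone and by 1.72 with the second (log2). The coefficient of variation over the spots of a probe was 5.87% to 14.8% on the allograft arrays. Between the mice of a group, the scaled signal had a coefficient of variation of 22.8% for day 5, 6.39% for day 8, 16.8% for day 14 and 16.1% for day 100. In the syngeneic grafts, before the floor, it was 56.6%. The probes share their target RNA and array, and so are readings of the same hybridization rather than replicates.

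**Figure D2:**
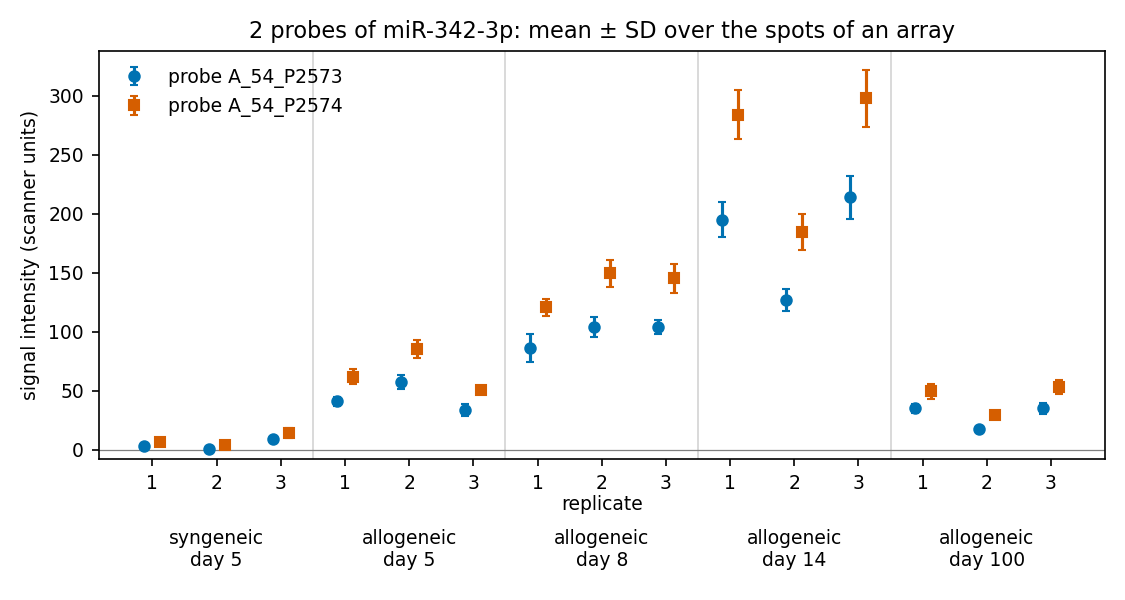
Signal of the 2 probes of miR-342-3p (vertical axis, scanner units, linear) on each of the 15 arrays, ordered by group and replicate. Points are means over up to 10 spots and bars the SD over spots. Both probes are near 0 on the syngeneic arrays and highest on day 14, where the second probe reached 298 units.

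Detection differed sharply between the groups. On replicates 1 and 2 of the syngeneic grafts, 0 of 18 and 0 of 20 usable spots were well above background. On replicate 3, 5 of 18 spots were, and only probe A_54_P2574 passed the rule, with 50% of its spots. All usable spots were well above background on every array of days 5, 8 and 14 and on replicates 2 and 3 of day 100. Replicate 1 of day 100 stood apart. It had 0 of 19 spots well above background, although its summed signal of 84.9 units was close to that of replicate 3. Less the local background alone, probes A_54_P2573 and A_54_P2574 had medians of 169.75 and 180.5 units on it, against 95.5 and 118.75 on replicate 3. The probes of miR-342-5p averaged -29.7 to -18.1 units on it. Whether the background taken off this array lowered its level, and so its place below day 5, was not tested. The scanner software put the additive error of that array at 13.1 units, against 2.67 to 3.66 on the other 14 arrays, and 60 miRNAs were detected on it, the fewest of all. Without that array the day 100 difference from the syngeneic grafts was 1.76.

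The arrays lay on 2 slides, as numbered in the scanner files. One held days 8 and 14 with replicates 1 and 2 of the syngeneic grafts, and the other held days 5 and 100 with syngeneic replicate 3. The only detected syngeneic array was thus also the only one on its slide. Within the first slide, day 8 was above the syngeneic grafts by 3.49 and day 14 by 4.20 (log2). Both syngeneic arrays of that slide stood at the floor, so these are distances to the floor. Within the second slide, day 5 was above its single syngeneic array by 1.99 and day 100 by 1.36. Day 14 was above day 8 by 0.70 and day 5 above day 100 by 0.63, both within a slide. The differences of day 14 from day 5 and from day 100 cross the slides. With slide as a block, which rests on the 3 syngeneic arrays, these differences were 2.20 and 2.83 in place of 1.74 and 2.37.

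**Figure D3:**
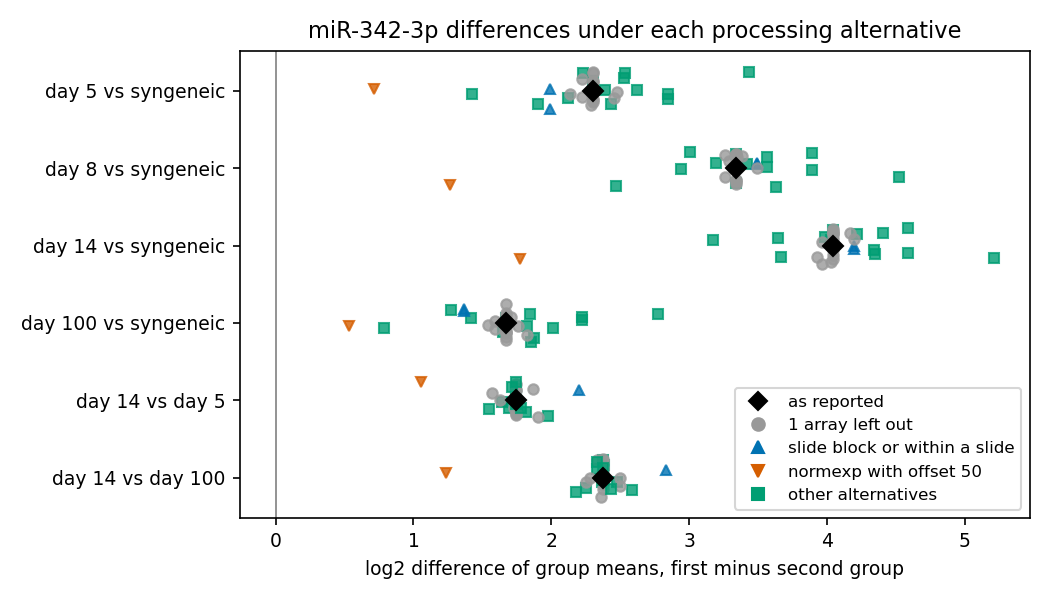
Log2 difference of the group means of miR-342-3p (horizontal axis) in 6 comparisons (vertical axis), as reported (black diamonds) and under each alternative processing. All points lie to the right of 0. The values with normexp and an offset of 50 (triangles pointing down) are the lowest for each comparison, from 0.53 for day 100 to 1.77 for day 14 against the syngeneic grafts.

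The other arm of the hairpin, miR-342-5p, was not detected on any of the 15 arrays. Its summed signal was 18.2, 12.3 and 15.04 units on day 14, and between -6.58 and 0.73 in the syngeneic grafts. On days 5 and 8 it ranged from 1.75 to 11.1. On day 100 it was 4.34 and -1.61 on replicates 2 and 3, and -97.0 on the noisy replicate 1. The 3 day 14 arrays thus held the highest values, but 1, 0 and 2 of their spots were well above background. The software itself set its detection flag on replicates 1 and 3 of day 14 and on no other array. Levels of the arms were not set against each other, since each probe has its own response.

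Among the 103 tested miRNAs, the range of the 5 group means was 4.04 for miR-342-3p and 4.01 for miR-720, a sequence now regarded as a tRNA fragment, which ran from 5.43 in the syngeneic grafts to 1.42 on day 8. The SD of miR-720 in the syngeneic grafts was 1.86, against 0.27 for miR-342-3p. The SD of miR-342-3p there is narrowed by the values set to the floor. Before the floor, its scaled signal in these grafts had a coefficient of variation of 56.6%. MiR-188-5p had a range of 2.63 and miR-223 one of 2.38. MiR-342-3p ranked second, behind miR-720, when the probes were summarised by the brightest one or by mean log2, when scaling used all mouse miRNAs, and with normexp. Under quantile normalization its range of 3.98 was first, ahead of 2.55 for miR-188-5p.

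The 5 miRNAs whose levels ran most nearly parallel over the 15 arrays were miR-652 (Pearson r = 0.96), miR-15b (0.94), miR-16 (0.94), miR-223 (0.94) and miR-146a (0.94). The correlations describe 15 arrays that share 5 groups and each array's scaling factor. The array uses older names, and the mature sequences below are those of the later RefSeq names miR-652-3p, miR-15b-5p, miR-16-5p, miR-223-3p and miR-146a-5p, shown to compare seeds (in capitals).
miR-652: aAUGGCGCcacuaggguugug
miR-15b: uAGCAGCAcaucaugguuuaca
miR-16: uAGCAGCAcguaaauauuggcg
miR-223: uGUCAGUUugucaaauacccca
miR-146a: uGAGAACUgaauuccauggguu
MiR-15b and miR-16, members of a family that represses cell cycle genes, share their seed with each other, and none of the 5 shares that of miR-342-3p. MiR-223 is a granulocyte and monocyte miRNA, and miR-146a is induced by NF-κB and damps its signaling. The 5 lie on other chromosomes than miR-342-3p, with miR-652 and miR-223 on chromosome X, miR-15b on 3, miR-146a on 11, and miR-16 encoded on both 3 and 14.

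All 5 had their highest group mean on day 14 and their lowest in the syngeneic grafts, with smaller ranges than miR-342-3p. MiR-652 went from -4.77 ± 0.38 in the syngeneic grafts to -3.80 ± 0.02, -3.10 ± 0.09 and -2.84 ± 0.16 on days 5, 8 and 14, and was at -3.99 ± 0.42 on day 100. Its arrays of days 5, 8 and 14 did not overlap, which held for only 3 of the 103 miRNAs, the others being miR-342-3p and miR-322. MiR-15b was at -3.27 ± 0.56, -1.74 ± 0.13, -1.13 ± 0.17, -0.99 ± 0.15 and -1.79 ± 0.34 in the same order. MiR-223 was at -2.61 ± 0.47, -0.75 ± 0.37, -0.62 ± 0.15, -0.23 ± 0.20 and -1.81 ± 0.22, so most of its difference was already present on day 5. MiR-16 and miR-146a had ranges of 0.89 and 1.49.

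Within the groups the likeness was weaker. Taken over deviations from the group means, r with miR-342-3p was 0.53 for miR-652, 0.64 for miR-15b, 0.65 for miR-16, 0.55 for miR-223 and 0.78 for miR-146a. By Spearman's rho over all arrays the first 4 of the 5 were the same, with values of 0.94 to 0.96. The 3 miRNAs that ran most nearly opposite were miR-148a (r = -0.91), which is abundant in liver, miR-30a (-0.86) and miR-22 (-0.83). Their day 14 differences from the syngeneic grafts, -1.19, -0.82 and -0.57 in log2 units, depended on the processing. Among the alternatives they rose to as much as -0.41, -0.05 and 0.65. The sign of miR-22 turned under quantile normalization, no scaling and normexp. MiR-148a had its lowest mean, -0.85 ± 0.24, on day 14, where miR-342-3p was highest. Over deviations from the group means these 3 had r of 0.04, -0.16 and 0.33, so their opposite course lay between the groups and not among the mice of a group.

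**Figure D4:**
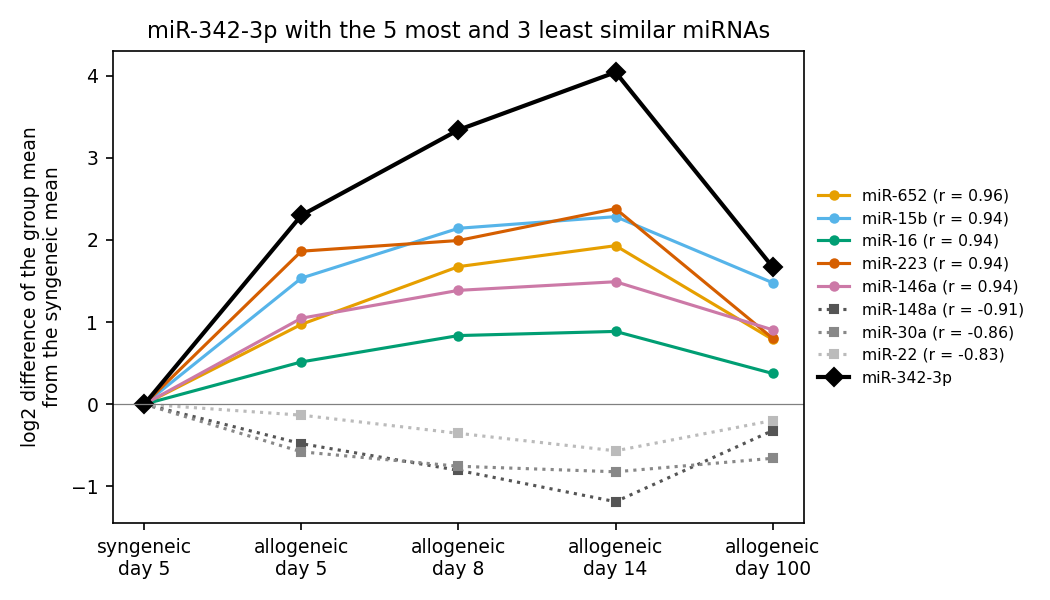
Difference of each group mean from the syngeneic mean (vertical axis, log2) over the 5 groups (horizontal axis) for miR-342-3p (black), the 5 miRNAs most similar to it (solid lines) and the 3 least similar (dotted lines). MiR-342-3p reaches 4.04 on day 14, and the highest of the others on that day is miR-223 at 2.38.

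MiRNAs known to mark blood cells were read beside it. The lymphoid-enriched list had 6 members on the array, of which only miR-155, a miRNA of activated lymphocytes and macrophages, was tested. MiR-150, which is abundant in mature lymphocytes, was detected on 0 of the 15 arrays, as were miR-181b, miR-181c and miR-181d, and miR-181a was detected on 2 arrays, both of day 14. MiR-155 was not detected on any syngeneic array, where all 3 values stood at the floor of -5.21. On day 14 it was at -2.69, -3.17 and -3.92, at least 3.02-fold higher, on day 8 it was at least 2.71-fold higher and on day 5 at least 1.78-fold higher. It entered the test only because the allografts of these days detected it, and its p-values, which rest on syngeneic values all at the floor, are not given. On day 100, where 1 of 3 arrays detected it, its values were -5.21, -4.94 and -4.94.

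Of the 5 tested leukocyte miRNAs (miR-155, miR-142-3p, miR-142-5p, miR-223 and miR-146a), 5 were higher than in the syngeneic grafts on day 5, where 18.4% of all 103 miRNAs were called higher by limma at an adjusted p under 0.05. On day 8, 3 of 5 were higher against 23.3% of all, and on day 14, 5 of 5 against 27.2%. On day 100, 2 of 5 were higher, miR-223 and miR-146a, against 16.5% of all. Day 14 was higher than day 5 for 0 of 5, against 2.91% of all miRNAs, and higher than day 100 for 5 of 5, against 33.0%. The comparisons with the syngeneic grafts share their control arrays. Leaving aside miR-155, for the reason given, 4 of 4 were called on day 5, 2 of 4 on day 8, 4 of 4 on day 14, 2 of 4 on day 100 and 4 of 4 between days 14 and 100. MiR-142-5p is counted here on days 5 and 14 and between days 14 and 100. It too entered the test only through the allografts of days 5, 8 and 14, and was detected on 2 of 3 syngeneic and 2 of 3 day 100 arrays. The other members, miR-142-3p, miR-223 and miR-146a, were all called in those comparisons. With slide as a block, 1 of the 5 was called on day 5, 3 on day 8, 4 on day 14, 0 on day 100 and 2 between days 14 and 100. These counts include miR-155 on days 8 and 14 and between days 14 and 100. Apart from it, the calls left were miR-223 on day 5 and miR-223 and miR-146a on day 8. On day 14 they were miR-223, miR-146a and miR-142-5p, and between days 14 and 100 only miR-223.

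The courses of these miRNAs were not all like that of miR-342-3p. MiR-142-3p, which is expressed across blood cell lineages, was above the syngeneic grafts by 1.98 on day 5 and by 1.33 on day 14 (log2, adjusted p = 0.0071 and 0.022, limma), with 0.65 and 0.15 on days 8 and 100 (adjusted p = 0.28 and 0.84). Its highest array, at 2.77, was replicate 3 of day 5. The call on day 14 was lost with slide as a block, and without syngeneic replicate 1 or 3 or day 14 replicate 1 or 2 (adjusted p of 0.053 to 0.093, limma). MiR-223 was above by 1.86, 1.99, 2.38 and 0.80 on days 5, 8, 14 and 100, with adjusted p of 0.00018, 5.9e-05, 7.9e-06 and 0.025 by limma. The call on day 100 was lost without syngeneic replicate 1 or 2 or without day 100 replicate 2 or 3 (adjusted p of 0.069 to 0.078), and that of miR-146a without day 100 replicate 3 (0.055). The summed scaled signal of the 6 lymphoid miRNAs ranged from 0.00255 to 0.0103 in the syngeneic grafts, 0.0616 to 0.0964 in the day 5 allografts, 0.115 to 0.144 for day 8, 0.103 to 0.202 for day 14 and 0.0246 to 0.0436 for day 100. That of the 5 myeloid-enriched miRNAs ranged from 0.185 to 0.308, 0.635 to 0.959, 0.806 to 0.923, 0.955 to 1.26 and 0.430 to 0.472 in the same groups. Of the 5 myeloid miRNAs only miR-223 and miR-146a were tested, miR-147 and miR-511 were detected on 0 arrays and miR-146b on 2, both of day 14. The lymphoid sum thus rested mainly on miR-155 and the myeloid sum on miR-223 and miR-146a, and their part in the course of miR-342-3p was not tested.

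MiRNAs of hepatocytes, which identify the tissue as liver, were detected on all arrays. The 5 tested were miR-122, which is nearly confined to hepatocytes, miR-192, miR-194, miR-148a and miR-101b. Against the syngeneic grafts 4 of 5 were lower on day 5 (6.80% of all miRNAs were called lower), 5 of 5 on day 8 (17.5%), 5 of 5 on day 14 (18.4%) and 3 of 5 on day 100 (14.6%). Day 14 was lower than day 5 for 5 of 5 (9.71% of all) and lower than day 100 for 4 of 5 (18.4%). Their median difference was -0.48, -0.47, -1.05 and -0.43 on days 5, 8, 14 and 100, against 0.12, 0.14, 0.07 and 0.00 over all tested miRNAs, but with no scaling it was 0.06, 0.16, -0.27 and 0.12. With no scaling 0, 0, 1 and 1 of the 5 were lower on days 5, 8, 14 and 100, and with scaling over all mouse miRNAs 0, 2, 5 and 1. With slide as a block the counts were 2, 3, 5 and 4, and 0 for day 14 against day 5 or day 100. On day 14 miR-122 fell by 1.05 in log2 units (adjusted p = 7.9e-05, limma), from 4.76 ± 0.11 to 3.71 ± 0.22, but its sign turned under quantile normalization and under normexp, and the call was lost with no scaling. MiR-101b fell by 2.00 on day 14 and by 1.57 on day 100 on the log2 scale (adjusted p = 4.4e-06 and 8.5e-05, limma). When a single array was left out, 1 to 3 of 5 were called on day 5, 3 to 5 on day 8, 5 on day 14, 1 to 3 on day 100 and 2 to 5 for day 14 against day 5. The count on day 100 was 1 without day 100 replicate 3 and 2 without syngeneic replicate 2 or 3, and day 14 against day 5 gave 2 without day 14 replicate 1 and 3 without day 5 replicate 2. On day 8 it was 3 without syngeneic replicate 3 or day 8 replicate 2 or 3.

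**Figure D5:**
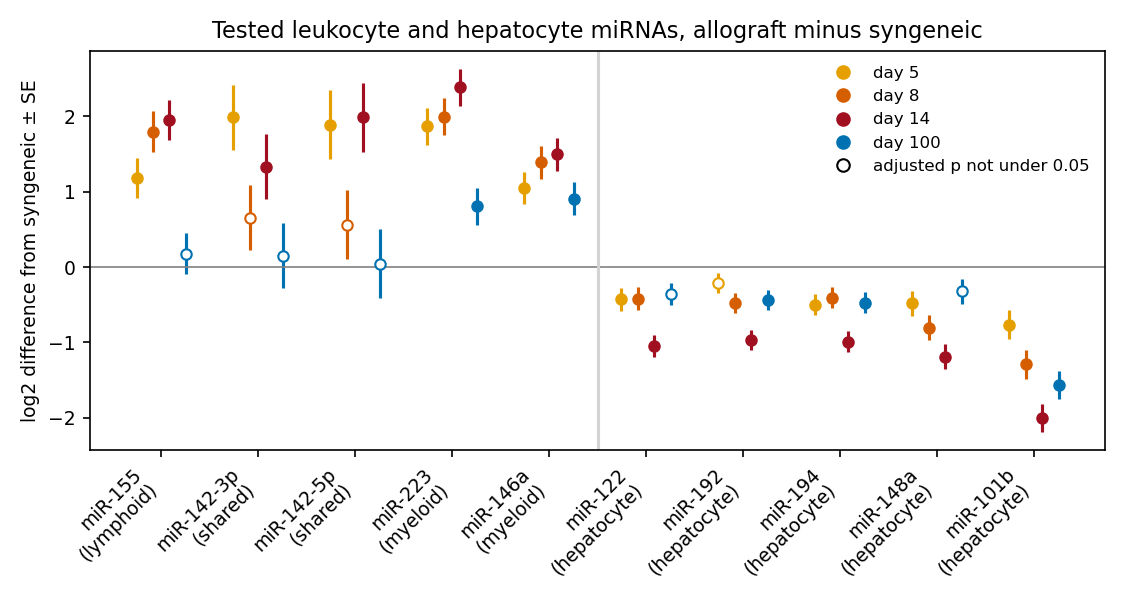
Log2 difference from the syngeneic grafts ± SE (vertical axis) of the 5 tested leukocyte and the 5 tested hepatocyte miRNAs (horizontal axis) on days 5, 8, 14 and 100. Open points had an adjusted p of 0.05 or more by limma. On day 14 the leukocyte miRNAs lie between 1.33 and 2.38 and the hepatocyte miRNAs between -2.00 and -0.97, where without scaling the hepatocyte median was -0.27. MiR-155 is drawn against syngeneic values at the floor.

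Of the 3 erythroid miRNAs, miR-451, which red cell precursors make in quantity, was higher on day 14 by 1.55 (adjusted p = 0.0023, limma), miR-144 differed there by 0.01 (adjusted p = 0.99), and miR-486 was detected on 1 array. On day 8 miR-451 was higher by 1.21 (adjusted p = 0.013, limma), while miR-144, detected on 3 syngeneic and 0 day 8 arrays, was 2.97-fold lower (adjusted p = 0.018, limma). Among the alternatives this log2 difference of miR-144 ran from -1.86 to -0.37. MiR-451 and miR-144 were both higher on day 14 than on day 100, by 0.96 and 1.27 (adjusted p = 0.032 and 0.039, limma), which neither was with slide as a block. Each of these calls of day 8 and of day 14 against day 100 was lost without some single array (adjusted p of 0.051 to 0.15). The 7 endothelial and stromal miRNAs included 2 tested ones, miR-126-3p of endothelium and miR-214, and 0 of 2 were called in any of the 6 comparisons, in which 2.91% to 33.0% of all miRNAs were called higher and 6.80% to 18.4% lower. With median scaling 1 of 2 was called higher on days 14 and 100, and with no scaling on days 8 and 14. MiR-126-3p had a range of group means of 0.32. Its summed list ranged from 0.853 to 1.097 in the syngeneic grafts and from 1.05 to 1.11 on day 14.

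A further list held miRNAs that, like miR-342-3p, lie within introns of protein-coding genes. It was a selection, those with a host gene of immune cells or of broad expression, and does not stand for all intronic miRNAs. It had 18 members on the array, of which 13 were tested. Against the syngeneic grafts 4 of the 13 were higher at day 5, 5 at day 8, 5 at day 14 and 1 at day 100, and 0, 1, 2 and 0 were lower. The shares called higher, 30.8%, 38.5%, 38.5% and 7.69%, stood beside 18.4%, 23.3%, 27.2% and 16.5% of all miRNAs. Those higher on day 14 were miR-15b and miR-16, with genes in Smc4, and miR-25, miR-93 and miR-106b of Mcm7, host genes that act in chromosome condensation and DNA replication. The mature miR-16 also comes from a gene on chromosome 14. MiR-15b was higher by 2.28 (adjusted p = 1.1e-05, limma). MiR-25 and miR-93 were each detected on 1 of 3 syngeneic arrays and entered the test only through the allografts of days 5, 8 and 14. Both are in the counts and shares of those days. Apart from them, miR-15b and miR-16 were called higher on each of those days, joined by miR-107 on day 8 and miR-106b on day 14. The call of miR-107 was lost in 10 of the runs that left out 1 array, and that of miR-16 on day 5 in 4. The call of miR-106b was lost without day 14 replicate 1 or syngeneic replicate 1 or 2 (adjusted p of 0.050 to 0.069). That call was also lost with quantile normalization and with scaling over all mouse miRNAs. MiR-26b fell by 0.74 on that day (adjusted p = 0.0041, limma), and its sign turned with no scaling. MiR-33 was called lower, with day 14 values of -5.21, -5.15 and -5.21 at or near the floor, and the call was lost without syngeneic replicate 2 or any of the day 14 arrays. Median differences of the list were 0.24, 0.50, 0.33 and 0.12 on days 5, 8, 14 and 100. Day 14 was higher than day 5 for 0 of the 13 and lower for 1, beside 2.91% and 9.71% of all miRNAs. Against day 100 it was higher for 6 and lower for 1, beside 33.0% and 18.4%. The 6 included miR-25, miR-93 and miR-28, which were detected on every array of days 5, 8 and 14 but of no other group. The member called lower was miR-26b, and both of its calls were lost with slide as a block.

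Of the neighbors of miR-342-3p on chromosome 12, only 2 could be tested. The nearest other miRNA gene, Mir345, begins 178255 bases after the hairpin. The list of neighbors, which runs on into the imprinted Dlk1-Dio3 cluster, had 51 members on the array, and 49 of them were detected on 0 arrays. The tested ones were miR-345-5p and miR-494, and 0 of 2 were called in any of the 6 comparisons, beside the shares of all miRNAs given above. On day 14, 1 of the 2 was called lower than in the syngeneic grafts with quantile normalization, and lower than on day 100 with that or with scaling over all mouse miRNAs. MiR-345-5p was at -3.99 ± 0.10 in the syngeneic grafts and -4.49 ± 0.08 on day 14 (difference -0.51, adjusted p = 0.14, limma). MiR-494 varied widely in the syngeneic grafts, at 0.16, -3.63 and -4.96, and its allograft means were -4.33 ± 0.05, -3.22 ± 0.12, -3.54 ± 0.73 and -4.76 ± 0.53 on days 5, 8, 14 and 100. Its day 14 arrays lay above those of days 5 and 100, by 0.79 and 1.23 in the mean (log2, adjusted p = 0.56 and 0.28, limma). Its r with miR-342-3p was -0.10 over the 15 arrays and 0.76 over the 12 allografts.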

How the data were processed

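The authors deposited, for each array, the spot intensity (background-subtracted, linear) written by Agilent Feature Extraction 9.5.1.1, per the file headers, with detection and outlier flags. The deposited series table of log2 values was not used here, since its row names are partly shifted. Control spots and spots flagged as outliers were left out, the spots of a probe were averaged, and the probes of a miRNA were summed. Detection needed a share of 0.5 or more of a probe's spots to be flagged well above background. Each array was scaled to its 75th percentile over the 52 miRNAs found on every array. Values below 0.0270, a typical lowest detected level, were set to it before log2. Of 567 mouse miRNAs, 103 detected on all 3 arrays of a group were fitted with limma 3.58.1 (R 4.3.3), 1 mean per group, with Benjamini-Hochberg adjustment and a threshold of 0.05. The fit was tested on simulated data. The study's methods name Student's t-test and no normalization between arrays. No 2 arrays were copies. Replicates were separate mice, and 3 arrays per group limit the precision. Named were miR-342-3p, its other arm, the 5 most and 3 least similar miRNAs by Pearson r, the 3 next in range, and list members. Other names were added after their values were seen. The miRNA and the lists were chosen with earlier results of these data known. Sequences were read from RefSeq tables (GRCm38.p6), in which 139 of the 567 array names were found unchanged. Python 3.11.15 with pandas 2.3.3 was used for the other steps.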

Additional observations from a re-analysis of the deposited data

How the results depend on the processing

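The 6 log2 differences of miR-342-3p were positive under every alternative run. Values moved by more than 1 SD are given in the order days 5, 8, 14 and 100 against the syngeneic grafts. They were 0.72, 1.26, 1.77 and 0.53 with normexp on median signals (offset 50), 1.42, 2.47, 3.17 and 0.79 with mean log2 over probes, and 2.85, 3.89, 4.59 and 2.22 with the floor divided by 4 or, chosen after seeing the data, no floor. Also chosen after seeing the data, they were 1.90, 2.94, 3.64 and 1.27 at each array's detection limit, 3.43, 4.52, 5.21 and 2.78 with probe A_54_P2573 alone, and 2.63, 3.63, 4.34 and 2.01 with probe A_54_P2574 alone. The brightest probe gave 3.01, 3.67 and 1.42 on days 8, 14 and 100, no scaling 3.56 and 4.41 on days 8 and 14, the software's total signal 3.56 on day 8, and median scaling 4.35 on day 14. Within slide 2 or with slide as a block, day 5 gave 1.99 and day 100 gave 1.36. Day 14 against days 5 and 100 gave 1.05 and 1.23 with normexp and 2.20 and 2.83 with slide as a block. With 1 array left out the differences were 2.14 to 2.47, 3.26 to 3.49, 3.92 to 4.196, 1.54 to 1.82, 1.57 to 1.90 and 2.25 to 2.50.

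The counts of all miRNAs called were 26, 42, 47 and 32 on days 5, 8, 14 and 100, 13 for day 14 against day 5 and 53 for day 14 against day 100. Scaling over all mouse miRNAs gave 10, 26, 31, 8, 3 and 33 in that order, and no filter gave 5, 21, 28, 6, 3 and 21. Only miRNAs detected on all 15 arrays gave 15, 27 and 31 on days 5, 8 and 14, and 26 against day 100. Slide as a block gave 5 on day 5, 16 on day 100, and 2 and 20 for day 14 against days 5 and 100. Within slide 2 the counts were 5 on day 5 and 12 on day 100. Only the groups compared gave 1 and 2 there, and normexp 17 on day 5. The methods' t-test at its unadjusted threshold gave 19 on day 100 and 28 for day 14 against day 5. After Benjamini-Hochberg adjustment it gave 2, 20, 21 and 1 on days 5, 8, 14 and 100, and 0 for day 14 against day 5, where limma called 13. For day 14 against day 5, other counts were 1 with no scaling, 20 with median scaling or mean log2 over probes, 23 with the brightest probe and 6 with the floor divided by 4. Day 14 against day 100 gave 34 with no scaling. With 1 array left out, day 100 ranged from 11 (without day 100 replicate 3; 14 without syngeneic replicate 2) to 38. Day 14 against day 5 ranged from 5 (without day 14 replicate 1; 7 without day 5 replicate 2) to 20 (without syngeneic replicate 3). The causes were not tested, beyond the fewer arrays or miRNAs used. Replicate numbers did not pair the mice: same-numbered arrays had a median r of deviations of -0.05, and 4 of 15 correlated best with their own number. With a replicate block the differences of miR-342-3p were the same, the day 14 count was 46, and the hepatocyte count on day 5 was 2 of 5. Over deviations from the group means, miR-148a and miR-22 turned to r of 0.0371 and 0.331.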
